A study of Drosophila melanogaster with 3 samples.

Results

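Of the 8858 peaks that passed the authors' reproducibility step for the fly homeodomain protein CG18599, 1764 (19.9%) had their summit in an intron close to, but outside, a promoter. A peak was counted here when its summit lay inside the span of a protein-coding gene but in none of the protein-coding exons, and when the closest start of transcription (TSS) of any protein-coding gene was 501 to 3000 bp away. The choice used position alone and no measured value. The chromatin came from whole Drosophila melanogaster embryos of pooled sex, 0 to 24 hours old, of 1 transgenic line that stably carries CG18599 with green fluorescent protein (GFP) at its C-terminal end. The tagged protein was recovered with an anti-GFP antibody from sonicated chromatin of 200 to 800 bp in 3 biological replicates, which form the only group. Input or untagged chromatin was not analysed here, and no value has such a background beside it. The regulatory DNA that drives the transgene is not given in the sources used here, and a whole-embryo sample mixes all tissues and embryonic stages.

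Introns near the start of a fly gene often hold enhancers, which raise transcription in chosen tissues, and internal start sites from which shorter transcripts begin. Homeodomain proteins such as CG18599 contact DNA through a recognition helix, and many of them bind short A- and T-rich words with a TAAT core. A peak marks where tagged protein was recovered on average over the embryo, and does not tell whether the protein touched the DNA itself. The irreproducible discovery rate (IDR) step, which gave the 8858 peaks, compares the order of peaks between replicates. Signal below is the authors' value for each peak, whose scale the sources used here do not state, and it served to order peaks within a list. The lists carry no read numbers, so the depth of the libraries is unknown.

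The 10 strongest intronic near-TSS peaks that may be shown have the following windows, from 50 bp before to 50 bp after their summits, on the plus strand of dm6, each named by the gene whose intron holds it. They are given because they carry the base composition described further on: the capitals mark runs of 6 or more A and T bases, and everything else is in lower case.
ush, chr2L:481006-481106: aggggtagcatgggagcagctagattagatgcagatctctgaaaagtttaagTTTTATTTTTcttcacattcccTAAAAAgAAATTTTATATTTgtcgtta
CG11050, chr2L:6612654-6612754: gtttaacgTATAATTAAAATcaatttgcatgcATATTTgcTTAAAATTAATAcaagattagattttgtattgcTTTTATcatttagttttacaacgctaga
Trl, chr3L:14759477-14759577: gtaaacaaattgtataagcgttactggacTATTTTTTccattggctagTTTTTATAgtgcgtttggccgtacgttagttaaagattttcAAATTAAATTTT
Lk6, chr3R:11761017-11761117: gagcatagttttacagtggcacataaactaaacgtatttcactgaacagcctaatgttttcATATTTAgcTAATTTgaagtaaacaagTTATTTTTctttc
CG32772, chrX:4910311-4910411: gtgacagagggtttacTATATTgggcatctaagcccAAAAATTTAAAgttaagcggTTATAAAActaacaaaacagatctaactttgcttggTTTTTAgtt
Tlk, chrX:3742174-3742274: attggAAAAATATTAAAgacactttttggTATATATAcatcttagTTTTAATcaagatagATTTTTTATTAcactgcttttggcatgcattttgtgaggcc
CG9663, chr2L:3302132-3302232: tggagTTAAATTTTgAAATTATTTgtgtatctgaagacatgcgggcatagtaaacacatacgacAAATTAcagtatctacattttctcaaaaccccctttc
Hyls1/chif, chr2L:16351201-16351301: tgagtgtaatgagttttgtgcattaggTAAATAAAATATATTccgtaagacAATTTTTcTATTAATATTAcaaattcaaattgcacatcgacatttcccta
CG3726, chrX:5918860-5918960: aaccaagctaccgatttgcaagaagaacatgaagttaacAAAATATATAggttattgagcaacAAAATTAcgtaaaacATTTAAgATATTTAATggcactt
norpA, chrX:4324937-4325037: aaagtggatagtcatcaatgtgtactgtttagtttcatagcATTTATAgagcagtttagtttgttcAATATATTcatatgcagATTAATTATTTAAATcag
A and T made up 66.3% to 77.2% of these windows, and the longest uninterrupted A/T run measured 8 to 15 bases. The windows of CG11050 and norpA held TAATTA, the palindromic homeodomain word, inside such a run, and the other 8 did not hold it on either strand.

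TATCGATA, the word bound by the promoter factor DREF, was found in the windows of only 3 of the 1764 peaks. The strongest pair is shown for contrast with the A/T-rich windows above, with TATCGATA in capitals.
Stt3A, chrX:21053264-21053364: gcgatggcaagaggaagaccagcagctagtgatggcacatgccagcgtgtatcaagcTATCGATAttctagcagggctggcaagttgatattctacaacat
Imp, chrX:10805998-10806098: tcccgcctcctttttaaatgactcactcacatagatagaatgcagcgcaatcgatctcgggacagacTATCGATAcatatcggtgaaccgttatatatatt
These windows held 51.5% A and T in Stt3A and 58.4% in Imp. Both peaks were weaker, with a signal of 894 at IDR rank 1332 for Stt3A and of 239 at rank 8134 for Imp.

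The strongest peak of the entire IDR list was an intronic near-TSS peak. It lay in the first intron of ush, which encodes a zinc finger cofactor of GATA factors, with its summit at position 481056 of arm 2L and a signal of 13236.0. The summit lay 1368 bp upstream of the closest TSS, that of cbt, a zinc finger transcription factor gene. It held rank 1 in replicates 1, 2 and 3. The peak in CG11050, 1017 bp downstream of its own TSS, had a signal of 11396.4 at IDR rank 3 and held rank 3 in each replicate. Trl, the gene of GAGA factor, which opens chromatin at GA repeats, held the next at IDR rank 6, and that peak took ranks 9, 5 and 7 in replicates 1, 2 and 3. Thus the leading peaks kept nearly the same place in all replicates. The IDR step compares the order of peaks between these same replicates, so close ranks at the top of its list are no independent check.

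Further down came Lk6, a kinase of the translation factor eIF4E, whose peak 988 bp upstream of an internal TSS held IDR rank 9 and ranks 7, 7 and 11. The peak in CG32772 held IDR rank 11 and ranks 11, 10 and 12, and that in Tlk, the gene of Tousled-like kinase, IDR rank 13 and ranks 10, 16 and 10. CG9663 followed at IDR rank 15, with ranks 14, 15 and 17. A peak at IDR rank 29 lay in the overlapping spans of HmgD and HmgZ, a pair of HMG-box chromatin protein genes, and held ranks 36, 30 and 22. The next peak lay where the spans of Hyls1, a centriole gene, and chif overlap, with ranks 48, 47 and 51; chif encodes an activator of the replication kinase Cdc7.

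Peaks 10 to 19 by signal lay in CG3726, Adf1, norpA, CG9837, CG12769, CHES-1-like, Raf, for, NFAT and Reph, with signals of 4457.3 down to 3567.3 and IDR ranks 44 to 91. Adf1 and CHES-1-like encode transcription factors, norpA the phospholipase C of vision, Raf the kinase below Ras, and for a cGMP-dependent kinase. Replicate 2 placed several of these lower than the other replicates. The CHES-1-like peak held rank 107 there, against 72 and 56 in replicates 1 and 3, and the CG12769 peak rank 89, against 59 and 60. The Reph peak ranked 102, 105 and 76.

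**Figure D1:**
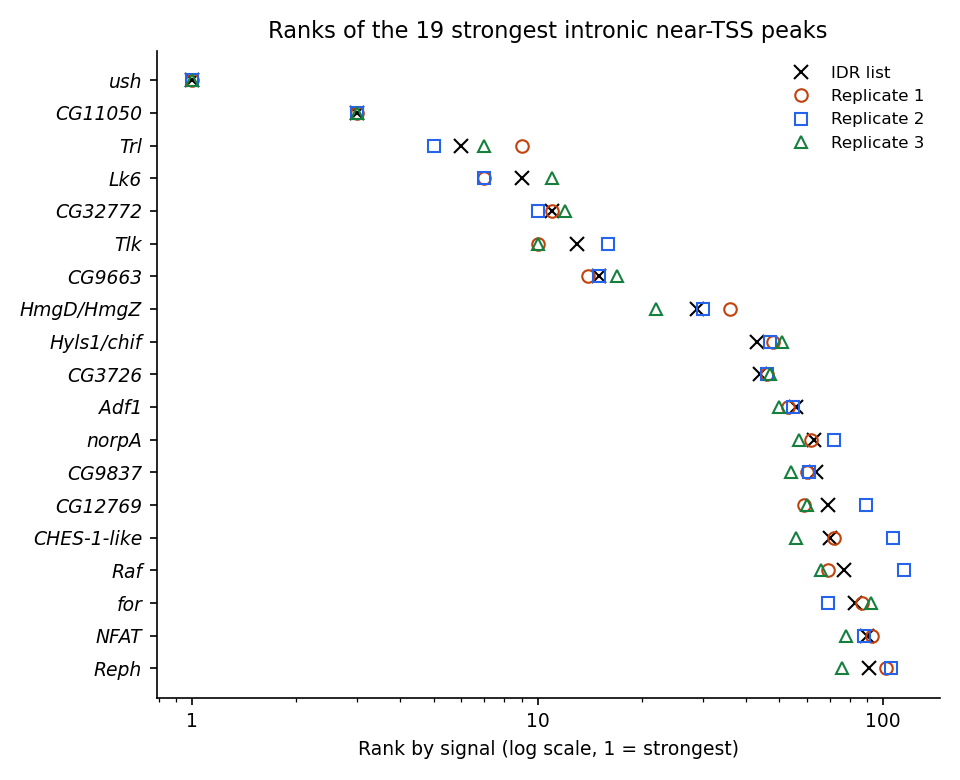
Rank by signal (x axis, log scale, 1 is the strongest peak) of the 19 strongest intronic near-TSS peaks, named by the gene that holds the summit. Crosses show the IDR list and open symbols the 3 replicate lists; the ush and CG11050 peaks hold ranks 1 and 3 in every list, and replicate 2 places the CG12769 and CHES-1-like peaks lower than replicates 1 and 3.

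Intronic near-TSS peaks were of middling strength as a class. Their median signal was 397, against 436 for promoter peaks (within 500 bp of a TSS), 357 for peaks in introns over 3000 bp from a TSS and 361 for intergenic peaks 501 to 3000 bp from a TSS. The middle of the class spanned 287 to 665 between its quartiles, and the whole class 224 to 13236.0. Of the strongest 100 IDR peaks 19 belonged to the class and 62 to promoters, and 10.1% of the class lay in the strongest 10% of the list, against 15.1% of promoter peaks and 8.67% of near intergenic peaks. In the replicates' own lists the median rank of the class was 4027.3 ± 49.4, against 4686.0 ± 145 for near intergenic peaks (SD, n = 3). The difference of −659 ± 105 ranks put intronic peaks ahead in 3 of 3 replicates, and was −94.5 among peaks found in top lists of 50% of the length. Its exact sign-flip permutation test over the replicates gave two-sided p = 0.25, which is the smallest p that 3 replicates allow, so no test of this kind here can reach 0.05. Peaks of 1 list share their libraries and are not replicates, so the comparisons below rest on the spread between the 3 replicates.

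In each replicate the 8858 strongest peaks, as many as the IDR list holds, were taken as its top list. A peak within 250 bp was found in all 3 top lists for 1270 of the 1764 intronic near-TSS peaks (72.0%), and the background over all IDR peaks was 70.1%. The shares are close. In single replicates 87.7% ± 1.85 of the class had such a peak, against 86.6% ± 1.86 of near intergenic peaks (SD, n = 3). The difference of 1.09 ± 1.97 percentage points changed sign in replicate 3 and was smaller than the spread between replicates (exact sign-flip permutation test, two-sided p = 0.5). Support followed strength: it was 99.7%, 98.3%, 90.4%, 55.2% and 16.2% in 5 equal bins of the class by signal, strongest first. The IDR list was built from these replicates, so the shares describe how the list was made and are not an independent check. Across the 1704 peaks matched in all 3 full lists, ranks correlated between replicates with Spearman rho of 0.834 to 0.857. This is a description over peaks of shared libraries. Each peak took the best replicate rank within 250 bp. Peaks close together, such as the 112 within 250 bp of the preceding one, can therefore share the same replicate peak in rho and support.

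Introns close to a TSS were densely occupied. The eligible introns make up 15.2 Mb, or 11.4% of the genome analysed, and held 116 IDR summits per Mb. The replicates' top lists held 1731, 1762 and 1763 such summits, or 114, 116 and 116 per Mb. At the same distances between genes, the replicates held 66.5, 66.9 and 70.1 per Mb, so the groups did not overlap, and the difference of 47.2 ± 1.55 per Mb had the same sign in 3 of 3 replicates (exact sign-flip permutation test, two-sided p = 0.25). Introns farther than 3000 bp from a TSS held 53.4 ± 4.06 per Mb, promoters 210 ± 18.7, and exons 7.29 ± 0.405. The density of the class was therefore above that of intergenic DNA at like distance and below that of promoters.

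Density fell with distance from the TSS. It was 145 ± 3.14 per Mb at 501 to 1000 bp and 84.7 ± 3.02 per Mb at 2501 to 3000 bp in introns (SD, n = 3), against 77.8 ± 2.08 and 51.1 ± 2.3 per Mb between genes. The median distance of a summit from its TSS was 1342.5 bp. Intronic positions were more densely occupied than intergenic ones in each of the 10 bins of 250 bp. Of the peaks nearest to the limits of the definition, just inside the inner limit lay those in Sec13 (502 bp from the TSS, signal 825) and prage (503 bp, signal 1955.9), and just outside it those near t-cup and DopEcR (499 bp each, signals 1401.1 and 925). Just inside the outer limit lay peaks in vib (2997 bp, signal 279) and atos (3000 bp, signal 1007.0), and just outside it those near CG32066 (3001 bp, signal 686) and Hipk (3005 bp, signal 465).

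**Figure D2:**
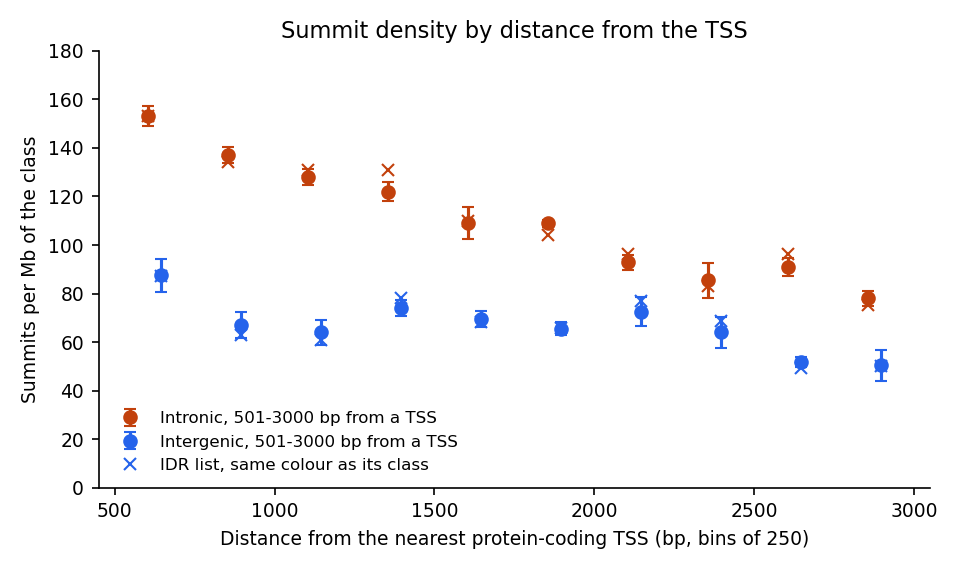
Summits per Mb (y axis) in bins of 250 bp of distance from the closest protein-coding TSS (x axis), for introns in orange and intergenic DNA in blue. Points and bars are the mean and SD of the 3 replicate top lists and crosses the IDR list; introns run between 153 per Mb at 501 to 750 bp and 78.1 per Mb at 2751 to 3000 bp, above intergenic DNA in every bin.

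The side of the TSS made little difference. Downstream of the closest TSS lay 1183 summits (67.1%) and upstream 581 (32.9%), while 67.6% of eligible intron lay downstream. The replicate densities were 114 ± 2.41 per Mb downstream and 118 ± 3.65 per Mb upstream (SD, n = 3), a gap within the spread. The closest TSS belonged to a gene holding the summit for 1553 peaks (88.0%): 1122 lay downstream of such a TSS, and 431 upstream of an internal TSS of the same gene. The remaining 211 were closest to the TSS of another gene, as in the case of ush and cbt. The closest TSS was, to the exact base, the outermost annotated start of its gene for 812 peaks (46.0%). For the others it was another annotated start, whose distance from the outermost one was not measured. On arms 2L, 2R, 3L, 3R and X the IDR density was between 111 and 121 per Mb. Chromosome 4, with 0.181 Mb of eligible intron, held 0 of the 1764.

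First introns carried most of the class. They held 1408 summits (79.8%) but 62.9% of eligible positions, an excess of 16.7 ± 1.05 percentage points in the replicates' top lists (higher in 3 of 3; exact sign-flip permutation test, two-sided p = 0.25). The replicate density was 146 ± 2.33 per Mb in first introns, 81.0 ± 2.71 in second introns and 41.9 ± 4.2 in introns from number 3 on (SD, n = 3). Introns of 500 bp or less held 17.3 ± 1.12 per Mb, those of 2001 to 5000 bp 155 ± 2.76, and those over 20000 bp 98.8 ± 3.59. The excess was 9.09 percentage points in introns over 2000 bp alone, a setting chosen after seeing the data. Within each length class above 500 bp, first introns still exceeded later ones: at 2001 to 5000 bp they held 166, 173 and 166 per Mb in replicates 1, 2 and 3, against 99.2, 96.2 and 107 in later introns, and over 10000 bp 127 ± 1.77, against 92.5 ± 4.02. The same held by distance. At 501 to 1000 bp first introns held 171 ± 6.89 per Mb, against 81.8 ± 6.13 in later introns. At 2001 to 3000 bp they held 114 ± 4.59, against 52.6 ± 2.83. Introns over 3000 bp from a TSS kept the order by intron number. Their densities were 78.4 ± 5.02 per Mb in first, 59.3 ± 4.48 in second and 27.3 ± 3.05 in introns from number 3 on. Their first introns held 50.6% of IDR summits on 34.6% of positions, so the excess was not particular to introns near a TSS.

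**Figure D3:**
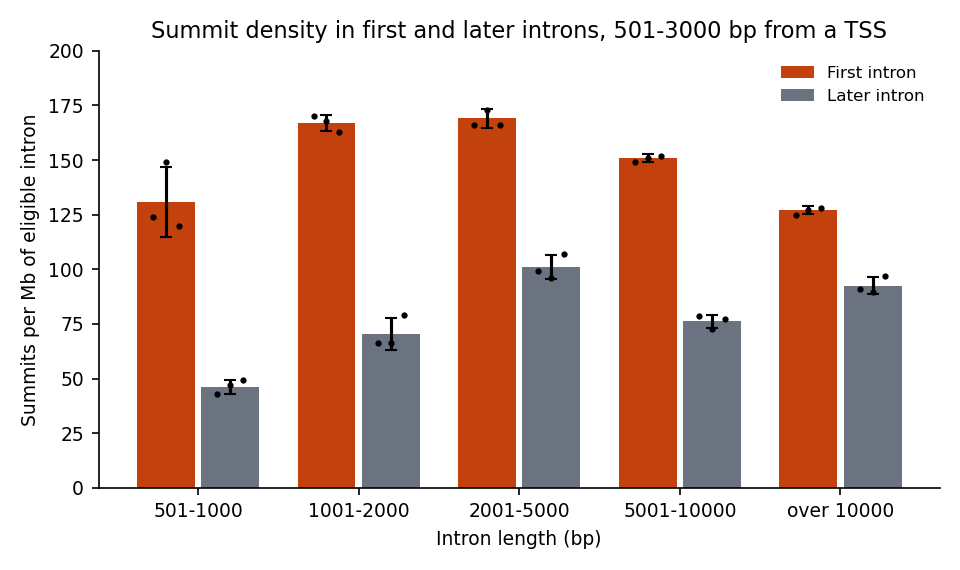
Summits per Mb of eligible intron (y axis) by intron length (x axis), for first introns in orange and later introns in grey. Bars and error bars are the mean and SD of the 3 replicate top lists and dots the replicates; first introns lie above later ones in every length class, for example 167 ± 3.66 against 70.4 ± 7.39 per Mb over 1000 and up to 2000 bp.

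Intronic peaks and promoter peaks occurred at the same start sites more often than positions in those introns. A promoter peak within 500 bp of the closest TSS accompanied 689 of the 1764 intronic near-TSS peaks (39.1%; 39.1% ± 4.16 in the replicates, n = 3). Of eligible intron, 23.2% lay closest to a TSS with such a peak. It accompanied 28.3% of near intergenic peaks, where 12.8% of positions were closest to such a TSS, and 33.8% of deep intronic peaks, where 17.8% were. Each class thus exceeded its own positions; whether the excess differs between classes was not tested. Where the TSS had a promoter peak, the replicate density of intronic near-TSS summits was 195 ± 3.04 per Mb, against 91.0 ± 4.34 per Mb where it had none (SD, n = 3). Between genes, the densities were 145 ± 3.18 and 56.9 ± 3.8 per Mb. The median signal was 383 for intronic peaks next to a promoter peak, against 403 for those without one, while 11.6% and 9.21% of them lay in the strongest 10% of the list. The larger part of the class, 1075 peaks, had no promoter peak at the closest TSS.

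Summits were rich in A and T bases. In the replicates' top lists, A and T made up 64.2% ± 0.754 of the summit window (50 bp to either side) and 58.3% ± 0.07 of the windows centred 500 bp to either side (SD, n = 3). The difference of 5.84 ± 0.82 percentage points was positive in 3 of 3 replicates, at 4.89, 6.26 and 6.36 (exact sign-flip permutation test, two-sided p = 0.25). The flanks can reach into exons and promoters, and promoter positions held 57.2%. Over all eligible intron positions the share was 60.7%, which lies between summit and flank. The profile was narrow, with 64.7% ± 0.82 at the summit, 59.0% ± 0.343 at 100 bp to its right and 56.5% ± 0.652 at 200 bp (51-bp windows). Near intergenic peaks had nearly the same rise, at 5.71 ± 0.868 points, so it was not particular to introns. A/T runs of 10 or more bases occurred in 46.1% ± 1.59 of summit windows, against 31.1% ± 0.375 of flanks, a measure added after seeing the data.

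**Figure D4:**
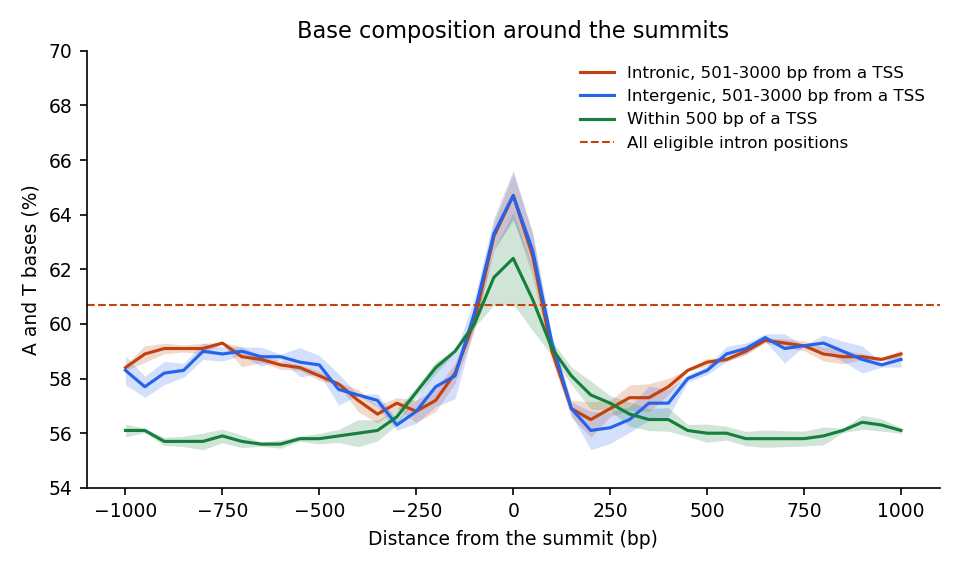
A and T bases in 51-bp windows (y axis, percent, from 54 to 70) by distance from the summit (x axis, bp), with lines and bands for the mean and SD of the 3 replicate top lists. Intronic near-TSS peaks in orange and intergenic peaks in blue follow nearly the same curve, with 64.7% at the intronic summit; promoter peaks in green reach 62.4%, and the dashed line marks the 60.7% of all eligible intron positions.

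Of 18 short words searched on both strands of the summit windows, A/T-rich words stood out most from the flanks. ATATTA, an A/T word without the homeodomain palindrome, was in 312 windows (17.7%); its background over all IDR summits was 18.0%, and 11.2% of eligible intron windows held it. In the replicates it was in 16.6% ± 0.783 of summit windows, against 8.22% ± 0.205 of flanks (SD, n = 3). TAATTA was in 157 windows (8.90%), near the 9.04% of all IDR summits and the 8.18% of all eligible intron windows. The replicates gave 9.61% ± 0.232 at summits, against 7.12% ± 0.226 in flanks, a difference of 2.48 ± 0.433 points with the same sign in 3 of 3 (1.24 points in windows of 25 bp to either side). TAATTG, a related homeodomain word, was in 183 windows (10.4%; 9.65% of all IDR summits and 11.6% of intron windows), and summit and flanks differed by −0.0795 ± 0.883 points. The TAAT core, which lies inside both of these words and on the other strand of ATATTA, was in 1326 windows (75.2%), against 71.8% of all IDR summits and 68.5% of intron windows. In the replicates it was in 75.4% ± 1.8 of summit windows, against 61.3% ± 0.325 of flanks. This difference of 14.1 ± 1.95 points had the same sign in 3 of 3 and was 20.1 in the stronger part. Near intergenic peaks held TAAT in 75.6% of windows and deep intronic peaks in 74.3%. The counts above put the class near the whole IDR list for TAATTA and ATATTA alike.

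Words of GATA factors were more frequent in the class than at promoter and near intergenic peaks, and close to their share in deep introns. TGATAA was in 203 windows (11.5%), with 9.66% over all IDR summits and 7.95% over intron windows, and GATAAG, which overlaps it, in 130 (7.37%), with 6.15% and 5.45%. In the replicates TGATAA was 2.6 ± 1.02 points above promoter peaks and 3.18 ± 0.565 points above near intergenic peaks, with the intronic share taken first (SD, n = 3). The difference from promoters for GATAAG was 1.44 ± 0.834 points. Deep intronic peaks held TGATAA in 10.5% and GATAAG in 6.49% of windows. The excess of GATAAG over its flanks was 1.78 ± 0.781 points in the whole class and 0.294 points in its stronger part (upper 50% of the top lists). Matches are letters in a window and do not show that a factor was bound.

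Words of promoter factors were rarer in the class than at promoter peaks. TATCGATA was in 3 windows (0.170%), against 1.94% of promoter peaks, 0.824% of all IDR summits and 0.218% of intron windows. CGATAG, part of the word bound by the insulator protein BEAF-32 and overlapping TATCGATA where a G follows it, was in 33 (1.87%), against 6.66% of promoter peaks, 3.54% of all IDR summits and 1.90% of intron windows. The replicate difference from promoter peaks for CGATAG was −4.67 ± 0.96 points (SD, n = 3). GGTCACAC, a core promoter word, was in 1 window (0.0567%), against 1.19% of promoter peaks, 0.587% of all IDR summits and 0.133% of intron windows. The class thus held these words at about the share of intron windows in general.

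GAGAG, the word of GAGA factor, was in 198 windows (11.2%), with 12.0% over all IDR summits and 11.1% over intron windows. Its replicate share was 12.2% ± 0.77 at summits, against 14.9% ± 0.493 in flanks (SD, n = 3), and the difference of −2.74 points ranged over alternatives from −6.24 in the stronger part to −0.696 in windows of 100 bp to either side. CACACA was in 161 (9.13%), with 8.18% and 9.08%, and differed from its flanks by −2.19 ± 1.26 points (−0.479 with flanks at 1000 bp). CAGCTG, an E-box of basic helix-loop-helix factors, was in 71 (4.02%), with 4.32% and 3.67%. CACGTG, another E-box, was in 17 (0.964%), with 0.869% and 1.13%. CAGGTAG, the word of the early activator Zelda, was in 3 (0.170%), with 0.384% and 0.506%. Of the other A/T-rich words, TATATA was in 175 (9.92%), with 10.8% and 7.57%, and AATAAA in 478 (27.1%), with 27.5% and 22.8%. TTTATG was in 238 (13.5%), with 12.2% and 12.9%, and TTTATTG in 97 (5.50%), with 4.92% and 4.85%. In each of these pairs the first share is over all IDR summits and the second over eligible intron windows, TTTATG and TTTATTG share their first letters, and TTTATTG holds AATAAA on its other strand.

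A and T content went with strength. Ordered by signal within each replicate, 5 equal bins of the class held 68.2% ± 0.787, 65.5% ± 0.775, 64.0% ± 0.42, 61.9% ± 1.25 and 61.3% ± 0.681 A and T in the summit window, strongest first (SD, n = 3). The flanks stayed between 57.8% and 58.8%. ATATTA was in 25.3% ± 1.36 of the strongest bin and in 13.3% ± 0.853 of the weakest, and TAATTA in 12.6% ± 0.757 of the strongest and 8.48% ± 0.957 of the weakest. In the weakest bin the TAATTA share of the flanks was 8.0% ± 0.574, which overlaps that of the summits. The split into 5 bins was chosen after seeing the data, and signal was used here only to order peaks.

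**Figure D5:**
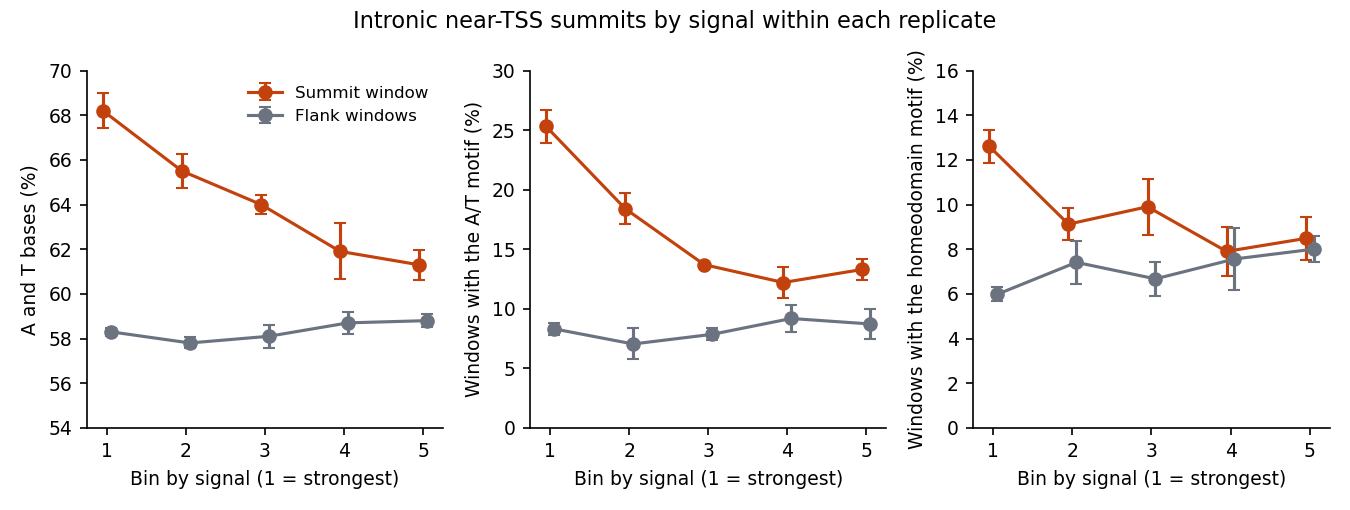
Bins of equal size of the intronic near-TSS peaks by signal within each replicate (x axis, 1 is the strongest), with the A and T share of the windows (left, axis from 54%), the share of windows with ATATTA (middle) and with TAATTA (right). Points and bars are the mean and SD of 3 replicates for summit windows in orange and flank windows in grey; the summit values are 68.2% A and T, 25.3% ATATTA and 12.6% TAATTA in the strongest bin, and 61.3%, 13.3% and 8.48% in the weakest.

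Strong intronic peaks were also more frequent on the X chromosome. The class has 362 peaks on X, of which 13.5% lay in the strongest 10% of the IDR list, against 9.27% of its 1402 peaks on 2L, 2R, 3L and 3R. The replicates gave 14.4%, 12.3% and 14.0% on X, against 9.16%, 9.54% and 9.92% on the other arms. The groups did not overlap. Deep intronic peaks showed a gap in the same direction, 6.92% ± 0.856 on X, against 4.61% ± 0.267 (SD, n = 3). So did near intergenic peaks, with 11.9% ± 0.529 on X, against 7.88% ± 0.442. By this measure the gap was therefore not particular to the class. Promoter peaks instead had 13.2% ± 1.15 on X, against 15.3% ± 0.512. Median ranks in the replicates' top lists differed between classes. On X the median rank of the class was 3861.8 ± 220, against 4407.3 ± 60.4 on the other arms. Deep intronic peaks had 4801.7 ± 126, against 5011.3 ± 8.08. Near intergenic peaks went the other way, with 5068.0 ± 274 on X, against 4772.3 ± 105, as did promoter peaks, with 3879.3 ± 331, against 3755.2 ± 26.6.

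The peaks were spread over many genes. Of 9216 protein-coding genes with any eligible intron, 1133 held at least 1 of the peaks, a background of 12.3%. Of these, 716 held 1, 387 held 2 to 4, and 30 held 5 or more. The share of genes with a peak followed the length of eligible intron, with genes in 10 bins of equal size: it was 0% in the 3 bins of shortest length and 55.3% in the longest. Neighbouring peaks can share a site: 112 summits lay within 250 bp of the preceding one, none closer than 199 bp, and 32 peaks shared their interval with another. Counting such neighbours once left 1652.

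Tlk and CG1677 held the most, with 12 each, or 0.482 and 0.334 per kb of eligible intron. The strongest peak in CG1677, at IDR rank 348, was closest to the TSS of another gene. The next gene, shn, held 11. Schnurri, the product of shn, is a zinc finger factor that represses targets in Dpp signalling, and its introns held 11, 11 and 13 summits in the top lists of replicates 1, 2 and 3. Then came CHES-1-like and Svil with 10 each, CG32264, shep and SNF4Agamma with 8 each, and 6 genes with 7 each, namely ush, NFAT, CG14434, tou, atos and Ten-a; the last 4 fall outside the naming rule and were added because of the tie. Svil encodes a supervillin-related actin-binding protein, shep an RNA-binding protein, and SNF4Agamma the gamma subunit of the AMP-activated kinase. Per length of eligible intron, CG14434 held 0.999 peaks per kb, atos 0.945, CHES-1-like 0.854, NFAT 0.775 and ush 0.603, while Svil held 0.197 and Ten-a 0.144.

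Lists of genes of known pathways held a peak more often than the 12.3% of all genes in 16 of 17 cases, but long introns hold peaks more often. The share of all genes in the same of these 10 length bins, weighted to each list, is therefore given beside each. This measure was added after seeing the data. The lists were drawn up with earlier results of these data known. Their shares are descriptions, and an excess over genes of like length tests no pathway. Among chromatin regulators of the Polycomb and Trithorax groups 7 of 23 held a peak (30.4%), against 16.6% of genes of like length, with 19 peaks in 54.8 kb, or 347 per Mb. Trl had 4, with the strongest at IDR rank 6. The gene ph-p of the Polycomb repressive complex had 2, led by a peak at rank 453, and tna of the Trithorax group had 4, led by rank 572.

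Signalling pathways are given one by one, and no difference between lists was tested. The strongest peaks in drk, Krn and wit, named below, were closest to the TSS of another gene. In the EGFR and Ras pathway, which carries growth factor signals, 9 of 15 genes held a peak (60.0%; 32.8% at like length). Raf had 3, led by IDR rank 77; drk, the adaptor gene, had 2, and Krn, a ligand gene, had 2. In the Dpp pathway it was 5 of 11 (45.5%; 31.8% at like length), with shn, the transducer gene Mad with 2, led by rank 724, and the receptor gene wit with 2, led by rank 855. Among insulin and growth control genes 5 of 11 held a peak (45.5%; 24.7% at like length), with Lk6 and InR, the insulin receptor gene, at 2 each and bun at 5.

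In the Hedgehog pathway 3 of 8 genes held a peak (37.5%; 19.8% at like length), namely the ligand gene hh and the glypican genes dlp and dally, all with weaker peaks at ranks 4322, 5719 and 6942. In the Wnt pathway it was 6 of 16 (37.5%; 34.7% at like length), led by nkd, an antagonist gene, at rank 2082, sgg, the kinase gene, at rank 2817 and arr, a co-receptor gene, at rank 2926. The Notch pathway had 2 of 11 (18.2%; 29.4% at like length), with 5 peaks in the coactivator gene mam and 1 in the ubiquitin ligase gene neur. Ecdysone response regulators had 8 of 14 (57.1%; 44.2% at like length), led by br at rank 1676, the coactivator gene tai at rank 2019 and the nuclear receptor gene Hr4 at rank 2031. The Wnt share was close to that of genes of like length and the Notch share below it. The strongest peaks in dally and br were closest to the TSS of another gene.

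Among structural and regulatory genes, actin cytoskeleton genes had 9 of 15 with a peak (60.0%; 31.9% at like length), led by tsr, the cofilin gene, at rank 337, Moe at rank 787 and dia, a formin gene, at rank 965. RNA-binding proteins of neurons and translation control had 10 of 19 (52.6%; 44.1% at like length), with mub at rank 358, elav at rank 492 and 8 peaks in shep. GATA factors and partners had 2 of 6 (33.3%; 39.9% at like length), ush and GATAd. Septate junction and glial barrier genes had 4 of 15 (26.7%; 22.9% at like length), led by dlg1, scrib and nrv2.

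The remaining lists were low or short. Axon guidance genes had 4 of 20 (32.4% at like length), led by NetB, a netrin gene, fra, its receptor gene, and Fas3. For these 3 genes the TSS closest to the strongest peak belonged to another gene, and 1 axon guidance gene instead of 4 was found when the gene of the closest TSS was counted. Muscle and mesoderm genes had 2 of 11 (18.2%; 28.4% at like length), zfh1 and Mef2, both transcription factor genes. Of the 8 Hox genes 1 held a peak, Abd-B, with 1 peak of signal 847, which is 12.5% against 28.1% at like length and 24.8 peaks per Mb. Heat shock and chaperone genes had 3 of 7 (42.9%; 4.39% at like length), Hsp83 with a peak of signal 1939.6, stv and Hsp60A, on only 4.47 kb of eligible intron. The Hsp60A peak was weak, with a signal of 272 at rank 6952, and only the top list of replicate 1 held such a summit in this gene. Cytosolic ribosomal protein genes had 0 of 51 in 20.9 kb, where genes of like length had 2.7%, and 1 when the gene of the closest TSS was counted.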

How the data were processed

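Peaks were measured by anti-GFP chromatin immunoprecipitation and sequencing in 3 biological replicates of 1 group, per the labels. The authors deposited, per the deposited notes, 1 list per replicate made from its reads and those of a control, a pooled list and an IDR list, on dm6 and dm3; only dm6 was used. The sources used here name no aligner, caller or IDR threshold. The deposited signal has no stated scale and only ordered peaks. The deposited −log10 q-value was an alternative order; 3100 to 5550 entries per replicate were tied at its maximum. The deposited offset, in bp, gave the summit, written from 1. Replicate lists hold 30000 entries, so their length carries no information, and read depth is unknown.

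Gene models were Ensembl release 115 and sequence the RefSeq dm6 assembly. Summits up to 500 bp from a protein-coding TSS counted as promoter, the others as exon, intron or intergenic. Where transcripts differ, the lowest intron number and the shortest intron at a position were used. Top lists were the 8858 strongest peaks of each replicate; densities divide summits by the length of each class. Words were searched on both strands in windows of 50 bp to either side of the summit and of points 500 bp away on either side. Values are mean ± SD over 3 replicates, with an exact sign-flip permutation test, two-sided, smallest p 0.25. The steps were tested on simulated data. Python 3.11.15, numpy 2.4.6, pandas 2.3.3, scipy 1.17.1 and matplotlib 3.10.9 were used.

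The peaks, lists and words were chosen with earlier results of these data known. Genes named were those holding, or with the TSS closest to, the 20 strongest peaks; the 10 with the most peaks, ties by strongest peak; up to 3 per list by strongest peak; the 2 peaks at each side of each distance limit; and up to 5 peaks within 500 bp of a non-coding start. Of these, 1 of the 20 strongest peaks is not reported here. List symbols were matched by symbol or RefSeq synonym; 3 did not match and are not analysed here. Alternatives changed the limits, annotation, strength, window, flank, support distance and ranking, and left out each replicate. The first-intron values within length and distance classes, the X chromosome comparison and the count of neighbouring summits as 1 were added after seeing the data.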

Additional observations from a re-analysis of the deposited data

How the results depend on the processing

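No paired analysis was possible because there is 1 group. Of 208 values recomputed under alternatives, 183 kept their direction or call, of which 134 were also within 1.5 times of the reported size. Of the 49 that were not, 42 were words, under changed windows, flanks or strength or with a replicate left out. The others were the density difference from intergenic DNA (29.0 per Mb in top lists of 50% of the length), the first-intron excess and the rank difference (both given above), and the support difference of 1.09 points. The support difference was 7.34 in top lists of 50% of the length, 0.00234 in whole lists and between 0.213 and 2.15 when leaving out 1 replicate. The number of peaks was 900 in the stronger part (upper 50%) of that list, and 1133 genes with a peak became 696 there. The density of 116 per Mb was 106 with an inner limit of over 1000 bp, 129 and 104 with outer limits of 2000 and 5000 bp, 112 with exons and start sites of all annotated genes, and 59.1 in the stronger part. The share of peaks with a promoter peak at the closest TSS was 27.8% when it had to lie within 250 bp and 22.8% in the stronger part. For words with differences from the flanks near 0 the sign changed. TAATTG was 0.116 points above in windows of 25 bp to either side, 0.855 above in the stronger part, and between −0.587 and 0.213 when leaving out 1 replicate (0.136 without replicate 3). CGATAG was at −0.0663 in windows of 25 bp and at −0.79 with flanks at 1000 bp, and between −0.0567 and 0.0722 when leaving out 1 replicate. Leaving out 1 replicate put TATCGATA between −0.0851 and 0.000524 and GGTCACAC between −0.0575 and 0.0284. Among the lists, 5 changed by over 1.5 times in the stronger part, which holds fewer peaks by construction, and the axon guidance and ribosomal lists when the gene of the closest TSS was counted. The cause of the other changes was not tested. Library depth and input enrichment limit these values to an extent unknown here.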

Other observations

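Some intronic near-TSS peaks lay next to starts of non-coding RNA genes, which the definition above did not count as TSSs. A non-coding RNA start was within 500 bp of 32 of the 1764 summits (1.81%, exact Clopper-Pearson 95% interval 1.24 to 2.55), and 1.67% of eligible intron positions were as close. Near intergenic peaks had 61 of 623 (9.79%), with 5.49% of their positions. The strongest in introns lay by asRNA:CR44429 in gce (262 bp away, signal 2984.4), lncRNA:CR46265 in ChAT (361 bp, signal 2389.9), asRNA:CR45908 in CG1943 (358 bp, signal 2109.9), lncRNA:CR44409 in Dif (482 bp, signal 1701.9) and lncRNA:CR43411 in osp (463 bp, signal 1467.8). The start of an annotated transposable element was within 500 bp of 10 intronic near-TSS summits (0.567%, interval 0.272 to 1.04), against 3.24% of positions. Other classes went the same way, with 0.693% of deep intronic peaks, against 3.56% of their positions. For near intergenic peaks it was 2.57%, against 5.92%. Intervals cover counting error only and treat peaks as independent, although neighbouring peaks can share a site. They do not measure the spread between replicates.

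Over all 2080 hexamers, counted with their reverse complements, the share of intronic near-TSS summit windows followed A and T content, a search made after seeing the data. The median log2 ratio of summit to flank share was 0.68 for the 36 hexamers of A and T alone and −0.81 for the 36 with none. CTAGTA, with 4 A and T bases, had the highest ratio, with 44 windows (2.49% of summits, 0.879% of flanks). ATATTA ranked 3 and TAATTA 406. Words with fewer A and T bases also ranked high. AGGGTA and GTACCA, with 3 each, ranked 7 and 8, and GTGCAC, with 2, ranked 11. They were in 63, 49 and 57 windows. ACAGTG, with 3 A and T bases, was in 142 windows (8.05% of summits, 4.54% of flanks) and ranked 33. In the pooled list, the entries below the IDR peaks included 3711 intronic near-TSS summits, which is 17.6% of those entries, against 19.9% of the IDR list and 11.4% of the genome.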
